A study of Homo sapiens with 9 samples.

Results

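ANLN, ECT2, RACGAP1, PRC1, CIT and CEP55 encode proteins that split the cytoplasm of a dividing cell into daughter cells. These 6 genes were taken by name from a table of 58735 genes measured by RNA sequencing in HEYA8, an established line of human ovarian cancer cells labelled as high-grade serous and as WT in genotype. They were chosen by their role in cytokinesis and by their CPM in the sunitinib, compound 32 and DMSO libraries, so those values are a description: their fold changes, errors and threshold calls from the fit across all genes are printed as such, and no test of these 6 genes is offered as a result. The cells were treated for 24 h with sunitinib, an inhibitor of receptor tyrosine kinases, with compound 32, or with an equal volume of the solvent DMSO, and each treatment had 3 libraries. No source used here gives the dose of either compound, or says how their structures relate. All libraries come from 1 cell line and share a single batch label. The series describes the sunitinib and DMSO samples as biological replicates and says nothing of this kind for compound 32, so the spread there may be technical.

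Cytokinesis runs in a fixed order. In anaphase PRC1 bundles microtubules between the separating chromosomes into the central spindle, and centralspindlin, made of RACGAP1 and the kinesin KIF23, gathers there. Centralspindlin recruits ECT2, which activates the small GTPase RHOA under the cell equator and so drives assembly of a ring of actin and myosin II; anillin, the product of ANLN, ties that ring to RHOA, myosin and septins. As the ring closes, citron kinase, the product of CIT, organises the midbody, the thin bridge left between the daughters, and CEP55 then brings in TSG101 and ALIX, which assemble the ESCRT-III filaments that cut it. Many genes of late mitosis are transcribed mainly in G2 and M phase, through a promoter element named the cell cycle genes homology region (CHR), at which the MuvB core acts with B-MYB and FOXM1 or, in resting cells, within the repressive DREAM complex.

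The promoters of these genes are shown because this element is short enough to read by eye, and its part in the levels below was not tested. RefSeq promoters (GRCh38.p14) were matched for 5 of the 6 genes, all but RACGAP1. Each line below runs 5′ to 3′ on the gene's own strand, from 150 bases before the transcript start to 25 bases of the transcript. Capitals mark the CHR, searched as TTTGAA on both strands and so also read as TTCAAA, and the CCAAT box, searched as CCAAT on both strands and so also read as ATTGG. Positions count from 1 at the first base of the transcript and from -1 at the base before it. The windows lie at chr7:36389712-36389886 on the plus strand for ANLN, at chr3:172750576-172750750 on the plus strand for the first of the ECT2 starts, at chr15:90994511-90994685 on the minus strand for PRC1, at chr12:119877296-119877470 on the minus strand for CIT, and at chr10:93496462-93496636 on the plus strand for CEP55.
ANLN: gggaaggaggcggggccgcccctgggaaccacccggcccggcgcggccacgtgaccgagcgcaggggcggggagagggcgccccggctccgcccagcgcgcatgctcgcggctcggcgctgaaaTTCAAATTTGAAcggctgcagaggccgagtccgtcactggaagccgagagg
ECT2: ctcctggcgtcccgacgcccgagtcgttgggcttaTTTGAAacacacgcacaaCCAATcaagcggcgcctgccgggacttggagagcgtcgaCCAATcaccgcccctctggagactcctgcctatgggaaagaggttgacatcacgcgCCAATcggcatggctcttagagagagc
PRC1: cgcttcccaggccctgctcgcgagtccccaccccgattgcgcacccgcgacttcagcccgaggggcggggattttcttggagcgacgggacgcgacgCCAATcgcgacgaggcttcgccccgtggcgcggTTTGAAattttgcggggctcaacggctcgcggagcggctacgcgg
CIT: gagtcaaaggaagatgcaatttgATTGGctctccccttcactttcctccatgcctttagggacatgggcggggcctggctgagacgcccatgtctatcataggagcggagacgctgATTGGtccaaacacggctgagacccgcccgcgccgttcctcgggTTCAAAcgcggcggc
CEP55: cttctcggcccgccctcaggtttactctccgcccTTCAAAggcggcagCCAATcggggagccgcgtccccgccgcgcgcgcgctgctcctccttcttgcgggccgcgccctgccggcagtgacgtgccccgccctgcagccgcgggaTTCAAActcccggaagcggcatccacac

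The letters TTTGAA or TTCAAA occurred between 250 bases before and 50 bases after the start in all 5 genes with a promoter, against 15.2% of all 35116 promoters in the table and 10.6% of the 15173 promoters of genes tested here. In the narrower stretch from 100 bases before to 50 after the start they again occurred in all 5, against 6.84% of all promoters and 4.46% of those of tested genes. These shares are per promoter. ECT2 has a pair of annotated starts, so the 5 genes have 6 promoters, of which 6 held the letters in the longer stretch and 5 in the narrower. ANLN held a pair head to head at -26 to -21 and -20 to -15, which together read the same on both strands. PRC1 held 1 at -20 to -15. In CEP55 the CHR letters spanned the start itself, from -3 to 3, with another copy at -116 to -111. CIT had its nearer copy inside the transcript, at 11 to 16. The first ECT2 start had copies at -115 to -110 and at 35 to 40, the latter lying past the end of the printed stretch. The other ECT2 start had them only at -242 to -237 and -182 to -177. The CCAAT box occurred in 4 of the 5 genes, and 4 of the 6 promoters, within the longer stretch, against 34.6% of all promoters, and ANLN was the gene without one. PRC1 carried it at -53 to -49, upstream of its CHR letters, and the first ECT2 start carried it at -97 to -93, -58 to -54 and -2 to 3. The variant TTTAAA, which also occurs in cell cycle promoters, was in none of the 5, against 12.2% of all promoters. A match to such short letters is a description of the sequence and not a site shown to be bound.

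**Figure D1:**
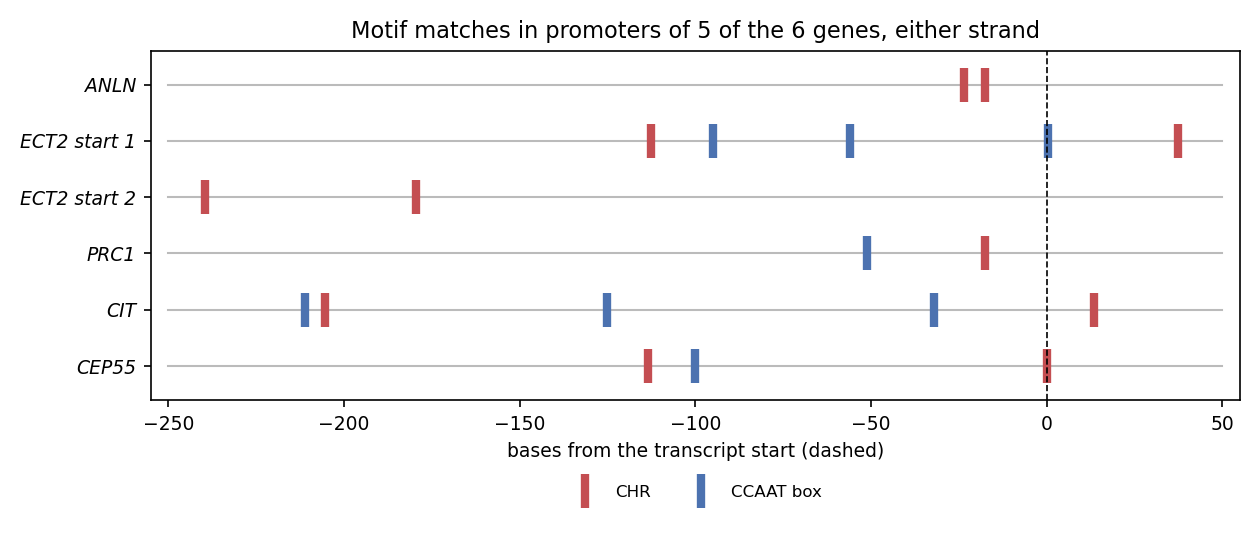
Positions of CHR and CCAAT matches on either strand (coloured ticks) in the 300 bases around the start of each gene's transcript, in bases from that start (dashed line). ECT2 has a pair of annotated starts, drawn as separate rows. CHR ticks fall within 100 bases before to 50 after a start in all 5 genes.

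Library totals ran from 15498101 to 18006171 counts. Levels are given as CPM, the counts of a gene scaled to an equal library total, with TMM factors that lay between 0.983 and 1.051. Sunitinib replicate 3 stood apart from the other libraries: ribosomal protein genes took 6.96% of its counts, against 3.71% to 4.52% elsewhere, and its log levels correlated with the other sunitinib libraries at 0.982 and 0.981, against 0.9915 to 0.9932 within all other pairs. For many results below, values or calls without that library are given as well. Summed markers of leukocytes, 5 genes, were at or below 1.04 CPM in every library, and those of fibroblasts, 5 genes, at or below 3.82 CPM. The 3 endothelial markers summed to 13.5 to 17.3 CPM in sunitinib, 5.43 to 6.13 CPM in compound 32 and 7.39 to 10.2 CPM in DMSO libraries, mostly from CDH5, which rose with sunitinib and fell with compound 32 (edgeR adjusted p = 0.000431 and 0.00299). The 9 ovarian and epithelial markers summed to 1290 to 1370, 1450 to 1560 and 1240 to 1320 CPM in sunitinib, compound 32 and DMSO libraries. Among them PAX8 averaged 123, 117 and 132 CPM and was not called against DMSO. Without sunitinib replicate 3 it was called lower with compound 32 (-0.18, edgeR adjusted p = 0.000693). WT1 averaged 5.11, 10.6 and 12.4 CPM and fell with sunitinib (edgeR adjusted p = 1.9e-05), and KRT7 averaged 223, 66.1 and 72.1 CPM and rose with sunitinib (edgeR adjusted p = 5.61e-08). KRT8 and KRT18, the highest of the list, averaged 633, 862 and 694 CPM and 346, 440 and 359 CPM. Without sunitinib replicate 3 both were called lower with sunitinib (-0.128 and -0.155, edgeR adjusted p = 0.00313 and 0.00165). Of the 7 markers tested, 2 rose with compound 32. KRT18 was among these (0.29, edgeR adjusted p = 0.032), a call lost without any 1 compound 32 or DMSO library. MUC16 stayed at or below 0.108 CPM on average and CDH1 at or below 0.06 CPM. The 5 mesenchymal markers summed to 5180 to 5850, 4880 to 4940 and 5540 to 5790 CPM in sunitinib, compound 32 and DMSO libraries. VIM averaged 3773, 3345 and 3626 CPM and AXL 882, 706 and 1108 CPM. In the full fit 1 of these 5 was called lower with sunitinib and 2 with compound 32, and further lower calls appeared without sunitinib replicate 3. The part of these markers in the results below was not tested. Fold changes and their standard errors come from edgeR's quasi-likelihood fit on all 9 libraries, over 15232 genes that passed a filter on low counts, and a gene counts as called where its p, adjusted by Benjamini-Hochberg over those genes, is under 0.05. All 6 genes passed the filter. In bulk RNA, fewer cells in G2 and M phase and less of a transcript in each such cell cannot be told apart.

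Every sunitinib library lay below every DMSO library for all 6 genes, and every compound 32 library did so for 5 of them, all but PRC1. The summed level of the 6 was 673, 684 and 660 CPM in sunitinib cells, 975, 987 and 966 CPM in compound 32 cells, and 1308, 1267 and 1293 CPM in DMSO cells. No library of one treatment reached the sum in any library of another. Over all genes tested, sunitinib against DMSO called 40.2% in either direction and 19.9% lower, and compound 32 against DMSO called 22.3% and 10.3%. Of the members 6 and 5 crossed that threshold, downwards. Libraries that all lay below those of DMSO were seen in 25.1% of genes with sunitinib and 24.4% with compound 32. Since the members were chosen by these levels, nothing is read from setting their counts beside these shares.

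**Figure D2:**
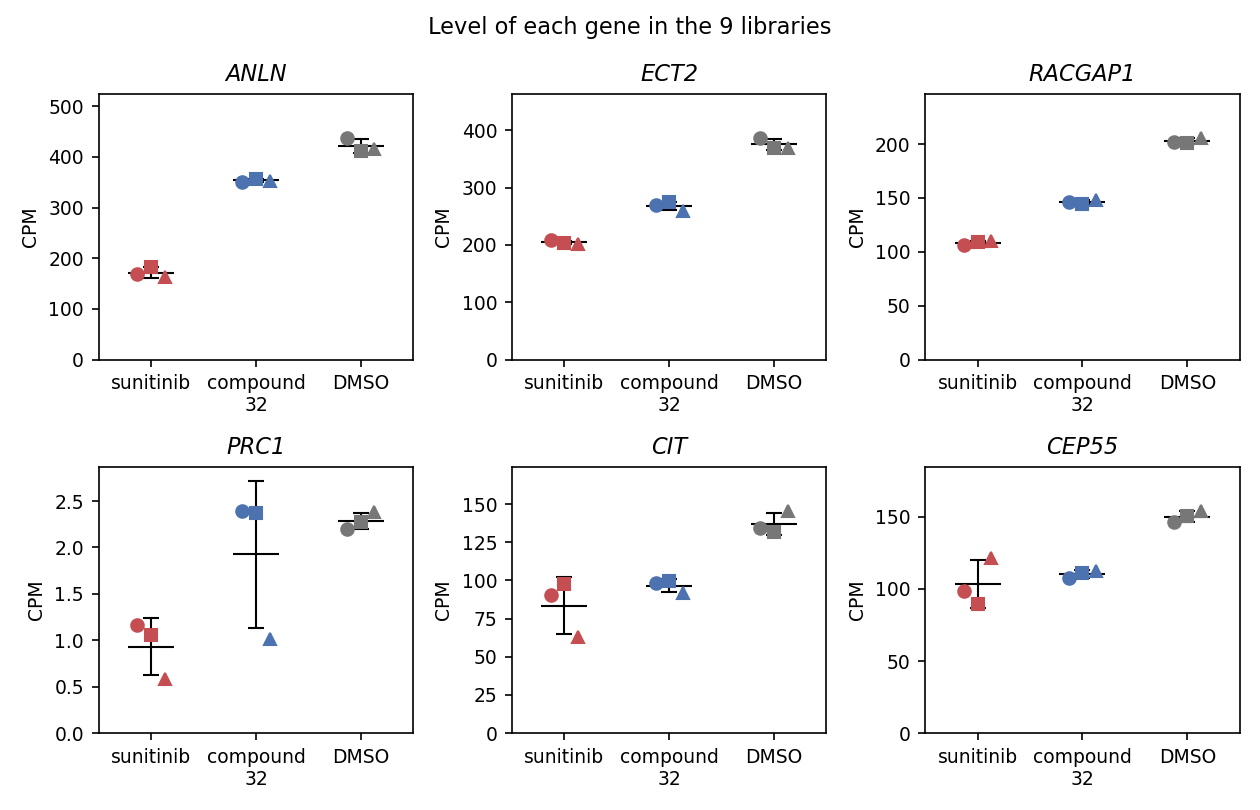
Level of each gene in CPM (vertical axes, each from 0) in the 3 libraries of each treatment. Circles, squares and triangles are replicates 1, 2 and 3, and bars show the mean ± SD. Sunitinib and DMSO points do not overlap for any gene, while compound 32 points overlap DMSO points only for PRC1.

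ECT2 and RACGAP1, the exchange factor that switches on RHOA and the centralspindlin subunit that recruits it, had nearly the same fold changes. ECT2 (chromosome 3, 172750682 to 172821474) was at 208, 203 and 202 CPM in sunitinib cells, at 270, 274 and 260 CPM in compound 32 cells, and at 387, 369 and 370 CPM in DMSO cells. RACGAP1 (chromosome 12, 49976923 to 50033136) was at 106, 109 and 110 CPM in sunitinib cells, at 146, 144 and 148 CPM in compound 32 cells, and at 201, 201 and 206 CPM in DMSO cells. For both genes the treatments formed separate bands in the same order, with sunitinib lowest and DMSO highest. The log2 fold change of ECT2 was -0.88 ± 0.06 (SE) for sunitinib against DMSO and -0.49 ± 0.06 for compound 32 against DMSO. For RACGAP1 it was -0.90 ± 0.06 with sunitinib and -0.47 ± 0.06 with compound 32. Across the 9 libraries their log2 levels had the highest Pearson correlation of the 15 pairs of members, 0.992, a description in which treatment sets most of the spread. The pseudogene RACGAP1P had 0 counts in all libraries together.

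ANLN, which scaffolds the contractile ring, had libraries of the 2 compounds far apart. The gene (chromosome 7, 36389806 to 36453791) was at 169, 183 and 163 CPM in sunitinib cells, at 351, 356 and 353 CPM in compound 32 cells, and at 437, 412 and 416 CPM in DMSO cells. Its sunitinib level was 0.407 times that of DMSO, a log2 fold change of -1.30 ± 0.07, while its compound 32 level was 0.838 times that of DMSO, a log2 fold change of -0.26 ± 0.07. Compound 32 and DMSO libraries did not overlap, but the small compound 32 difference lost its call when any 1 compound 32 library, or DMSO replicate 1 or 3, was left out, with log2 fold changes between -0.27 and -0.23.

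CIT and CEP55, which act at the midbody, varied more between the sunitinib libraries. CIT (chromosome 12, 119685790 to 119877291) was at 90.3, 97.5 and 62.6 CPM in sunitinib cells, at 98.4, 99.6 and 91.6 CPM in compound 32 cells, and at 134, 131 and 145 CPM in DMSO cells. CEP55 (chromosome 10, 93496632 to 93529092) was at 98.4, 89.9 and 122 CPM in sunitinib cells, at 107, 111 and 112 CPM in compound 32 cells, and at 146, 151 and 154 CPM in DMSO cells. Replicate 3 thus held the lowest CIT and the highest CEP55 value of the sunitinib libraries, and both genes stayed below every DMSO library in all treated libraries. The log2 fold change of CIT was -0.71 ± 0.13 with sunitinib and -0.50 ± 0.13 with compound 32. That of CEP55 was -0.54 ± 0.10 with sunitinib and -0.45 ± 0.10 with compound 32. Without sunitinib replicate 3, the sunitinib values became -0.55 ± 0.05 for CIT and -0.67 ± 0.05 for CEP55. The compound 32 call of CIT was lost without compound 32 replicate 1 or 3 or DMSO replicate 3, with log2 fold changes of -0.52, -0.47 and -0.46.

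PRC1, the microtubule bundler of the central spindle, had very few reads assigned to it. Its counts were 22, 17 and 9 in the sunitinib libraries, 37, 38 and 17 in the compound 32 libraries, and 34, 38 and 37 in the DMSO libraries. The sunitinib libraries all lay below the DMSO libraries, whereas compound 32 replicates 1 and 2 lay among or just above them and only replicate 3 was low. The log2 fold change was -1.27 ± 0.35 with sunitinib, and -1.04 ± 0.34 without sunitinib replicate 3, the library with the fewest PRC1 counts. With compound 32 it was -0.25 ± 0.32, and 0.06 without compound 32 replicate 3. The gene's annotation limits what these counts mean. Of its 5525 exon bases (chromosome 15, 90966038 to 90995629, GENCODE 29), 3181, or 57.6%, also belong to AC068831.7, an overlapping gene on the same strand, and 406 belong to the antisense gene PRC1-AS1, which leaves 41.6% that lie in no other gene. For the other members at least 96.9% of exon bases lie in no other gene. No source used here says how reads falling in overlapping genes were counted, so the PRC1 level is uncertain.

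The overlapping gene AC068831.7 was measured beside it. It had 48, 44 and 50 counts in sunitinib libraries, 58, 67 and 67 in compound 32 libraries, and 98, 105 and 75 in DMSO libraries. Each treated library held fewer than any DMSO library. The log2 fold change was -1.04 ± 0.17 with sunitinib (edgeR adjusted p = 0.000549) and -0.55 ± 0.16 with compound 32 (edgeR adjusted p = 0.0325). Which of the overlapping genes a shared read came from cannot be told from counts per gene.

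The gap between compound 32 and sunitinib cells differed from gene to gene, and since neither dose is known it compares these treatments and not equal exposures. ANLN in compound 32 cells was at 2.06 times its level in sunitinib cells, a log2 difference of 1.04 ± 0.07 (SE). RACGAP1 was higher by 0.43 ± 0.06 and ECT2 by 0.39 ± 0.06 on the log2 scale. For these 3 genes every compound 32 library lay above every sunitinib library, as for 27.8% of all genes tested. For CIT the difference was 0.21 (95% confidence interval -0.08 to 0.49) and for CEP55 0.09 (-0.12 to 0.30), and the libraries overlapped. Without sunitinib replicate 3 the difference was 0.04 ± 0.05 for CIT and 0.23 ± 0.05 for CEP55, which then crossed the fit's threshold. PRC1 was higher by 1.02 ± 0.36 with overlapping libraries, by 0.79 ± 0.34 without sunitinib replicate 3, and by 0.84 to 1.33 without other single libraries, and it no longer crossed the fit's threshold without compound 32 replicate 1 or 2 or sunitinib replicate 2. The fit's threshold was crossed upwards by 4 of the 6 genes, and by 24.1% of all genes tested, with 49.2% in either direction. As above, nothing is read from that count.

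Ratios between genes also differed between treatments. The log2 ratio of ANLN to CEP55 was 0.78, 1.03 and 0.42 in sunitinib cells, 1.71, 1.68 and 1.65 in compound 32 cells, and 1.58, 1.45 and 1.44 in DMSO cells. In sunitinib cells the ring scaffold was therefore closer in counts to the midbody protein than in any other library, and in compound 32 cells it was farther from it than in DMSO cells. The ratio of KIF23 to RACGAP1, the subunits of centralspindlin, showed another order. Its log2 value was -0.82, -0.86 and -0.64 in sunitinib cells, -1.29, -1.29 and -1.34 in compound 32 cells, and -0.92, -0.87 and -0.96 in DMSO cells. The compound 32 libraries lay apart from both other groups. These are ratios of counts, with no correction for transcript length.

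**Figure D3:**
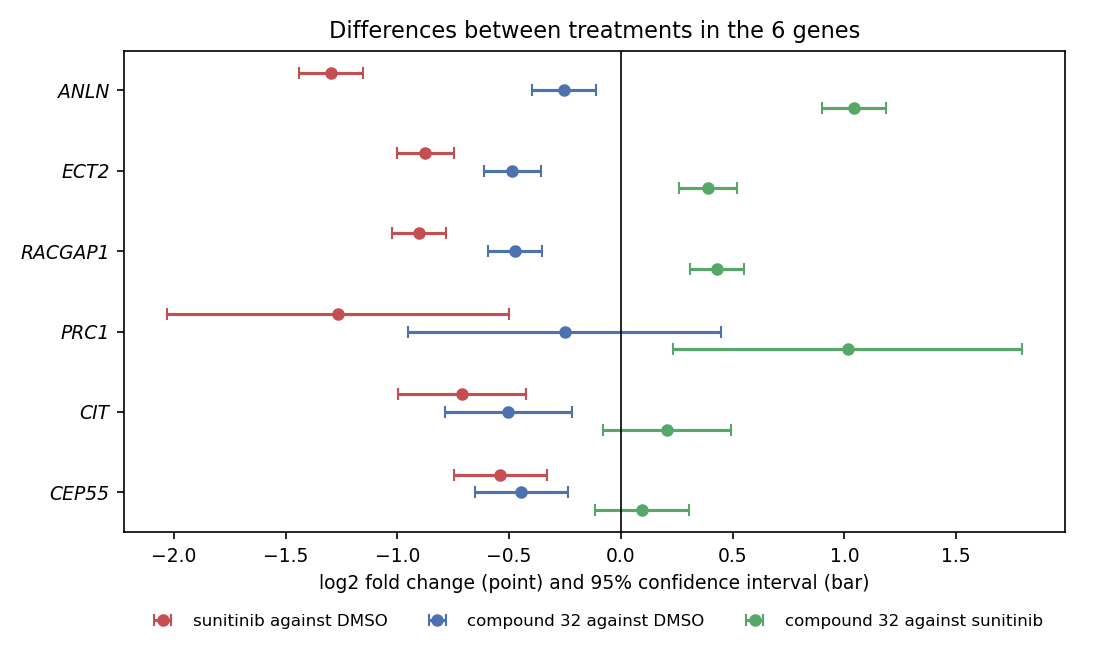
log2 fold change (horizontal axis) of each of the 6 genes with its 95% confidence interval, for sunitinib against DMSO, compound 32 against DMSO and compound 32 against sunitinib. The treated values of ANLN, -1.30 and -0.26, lie far apart with short intervals, those of PRC1 lie as far apart with wide intervals, and those of CEP55, -0.54 and -0.45, lie close together.

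Per kilobase of gene length, the order of the genes also differed between treatments. This length counts all annotated exon bases of a gene, 13230 for CIT, and is not that of 1 transcript, so the order between genes depends on the annotation. In sunitinib cells ECT2 was highest, at 37.2 ± 0.6 CPM per kb (SD, n = 3), followed by CEP55 at 31.6 ± 5.1, ANLN at 28.6 ± 1.7, RACGAP1 at 24.1 ± 0.5 and CIT at 6.3 ± 1.4. In compound 32 cells ANLN was highest at 58.8, then ECT2 at 48.7, CEP55 at 33.7 ± 0.8, RACGAP1 at 32.5 ± 0.4 and CIT at 7.29 CPM per kb. In DMSO cells ANLN was at 70.2 ± 2.3, ECT2 at 68.2 ± 1.8, CEP55 at 45.9 ± 1.2, RACGAP1 at 45.2 ± 0.6 and CIT at 10.3 ± 0.6 CPM per kb. Read within each library, ANLN was above ECT2 per kb in every compound 32 library, narrowly so in every DMSO library, and below it in every sunitinib library. CEP55 was above RACGAP1 in every compound 32 library, and in DMSO replicates 2 and 3 but not in DMSO replicate 1. In sunitinib cells CEP55 was above ECT2 only in replicate 3, and above ANLN in replicates 1 and 3. PRC1, at 0.169, 0.349 and 0.414 CPM per kb in sunitinib, compound 32 and DMSO cells, is not placed in this order because of the overlap given above.

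Among 10160 protein-coding genes with a mean of at least 5 CPM, those whose log2 levels followed the mean of the 6 genes most closely over the 9 libraries were SF3B1, QTRT2, SCFD2, DDX3X and MKI67, with Pearson correlations of 0.995, 0.993, 0.991, 0.990 and 0.987. MKI67 encodes Ki-67, a nuclear marker of proliferating cells. With PRC1 left out of the mean, a choice made after seeing the data, the closest were NAA15 at 0.995 and TACC3 at 0.994. SCFD2 and QTRT2 were again among the 8 closest, while SF3B1, DDX3X and MKI67 were not. For single members the closest gene was TACC3 for RACGAP1 (0.999), NAA15 for ECT2 (0.996), IPO5 for ANLN (0.996), DDB1 for CIT (0.998), NUF2 for CEP55 (0.984) and INHBA for PRC1 (0.975). TACC3 stabilises spindle microtubules and NUF2 is a subunit of the kinetochore's microtubule-binding NDC80 complex. Libraries share treatment and scaling, so these values describe likeness over 9 libraries and nothing more.

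The genes that work with the members were examined by role, in 4 lists of 83 genes in all, of which 82 were tested. Of those 82 genes, 25 were lower and 16 higher with sunitinib, and 13 were lower and 9 higher with compound 32, both against DMSO. Leaving out sunitinib replicate 3 gave 31 lower and 17 higher with sunitinib, and 22 lower and 22 higher with compound 32. Over all genes tested, the full fit called 19.9% lower and 20.3% higher with sunitinib and 10.3% lower and 12% higher with compound 32, with median log2 fold changes of 0.02 and 0. The fit without that library called more of all genes, 26.3% lower and 25.1% higher with sunitinib and 20.5% lower and 21.6% higher with compound 32, so counts per list from it are to be read beside these shares.

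Most of the 17 genes of the central spindle and the chromosomal passenger complex fell in treated cells: 13 fell and none rose with sunitinib, and 11 fell and 1 rose with compound 32. Their median log2 fold changes were -0.80 and -0.35. Without sunitinib replicate 3, 14 fell with sunitinib, and 12 fell and 2 rose with compound 32. KIF23, the kinesin partner of RACGAP1, averaged 63.6 ± 6.1 CPM in sunitinib cells and 59.1 ± 0.9 CPM in compound 32 cells, against 108 ± 2 CPM in DMSO cells (SD, n = 3 each). Its log2 fold change was -0.76 ± 0.07 with sunitinib (edgeR adjusted p = 1.37e-05) and -0.86 ± 0.07 with compound 32 (edgeR adjusted p = 1.26e-05). KIF4A, which PRC1 recruits to set the length of the central spindle, fell by 0.80 on the log2 scale with sunitinib and by 0.34 with compound 32 (edgeR adjusted p = 1.41e-05 and 0.00879). KIF14, which binds PRC1 and citron kinase, fell by 0.76 with sunitinib and by 0.86 with compound 32 (edgeR adjusted p = 5.31e-05 and 5.09e-05).

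Genes of this list came in different orders of the treatments. PLK1, the kinase that licenses ECT2 to bind RACGAP1, averaged 83.9 ± 2.7 CPM in sunitinib cells and 43.8 ± 0.9 CPM in compound 32 cells, against 174 ± 7 CPM in DMSO cells. It fell by 1.05 ± 0.06 on the log2 scale with sunitinib and by 1.99 ± 0.06 with compound 32, and compound 32 cells were lower than sunitinib cells (-0.94 ± 0.06, edgeR adjusted p = 3.86e-07). KIF20A, which carries the passenger complex to the central spindle, was likewise lower with compound 32 than with sunitinib (29.9 ± 1.3 and 64.2 ± 7.0 CPM, log2 difference -1.10 ± 0.09, edgeR adjusted p = 1.27e-06), and averaged 120 ± 4 CPM in DMSO cells.

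Other genes had their lowest level with sunitinib. KIF20B, a kinesin that acts in late cytokinesis, fell by 1.29 ± 0.08 with sunitinib and by 0.35 ± 0.08 with compound 32 (edgeR adjusted p = 5.04e-07 and 0.009). INCENP, the scaffold of the passenger complex, fell by 1.03 ± 0.14 with sunitinib and by 0.60 ± 0.13 with compound 32 (edgeR adjusted p = 0.000127 and 0.00777). Without sunitinib replicate 3 its log2 fold change with sunitinib was -0.855. The INCENP difference of 0.42 ± 0.13 between compound 32 and sunitinib cells was 0.25 without sunitinib replicate 3, and its call was lost without compound 32 replicate 2 or 3. AURKB, the kinase of the passenger complex, averaged 70.6 ± 2.0 CPM in compound 32 cells against 41.5 ± 1.9 CPM in sunitinib cells (log2 difference 0.77 ± 0.07, edgeR adjusted p = 2.74e-06). SHCBP1, a partner of centralspindlin, averaged 40.7 ± 1.0 CPM in sunitinib cells and 124 ± 3 CPM in compound 32 cells, against 107 ± 1 CPM in DMSO cells. It fell by 1.40 with sunitinib (edgeR adjusted p = 3.65e-08) and was the gene of this list that rose with compound 32, by 0.21 (edgeR adjusted p = 0.0202). CDCA8, the passenger subunit borealin, was instead nearly level between the compounds. It averaged 71.1 ± 7.0 CPM in sunitinib cells and 71.4 ± 2.8 CPM in compound 32 cells, against 132 ± 8 CPM in DMSO cells. The compound 32 calls of AURKB and SHCBP1 against DMSO were small, and were lost without any 1 of the compound 32 or DMSO libraries for AURKB and of all but compound 32 replicate 3 for SHCBP1. NUSAP1, another microtubule binder, shares 62.2% of its exon bases with an overlapping gene, and its counts are uncertain in the same way as those of PRC1.

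The contractile ring list was mixed. Of its 25 tested genes 8 fell and 5 rose with sunitinib, and 1 fell and 4 rose with compound 32, with medians of -0.10 and 0.08. Without sunitinib replicate 3, 11 fell and 6 rose with sunitinib, and 2 fell and 10 rose with compound 32. RHOA itself averaged 719 ± 80 CPM in sunitinib cells and 660 ± 17 CPM in compound 32 cells, against 651 ± 14 CPM in DMSO cells, and was not called in either comparison (edgeR adjusted p = 0.177 and 0.9). MYH9, a heavy chain of non-muscle myosin II, averaged 1147 ± 257, 1326 ± 26 and 1226 ± 49 CPM in sunitinib, compound 32 and DMSO cells and was not called with either compound. Without sunitinib replicate 3 it was called higher with compound 32, by 0.115 (edgeR adjusted p = 0.00213). MYH10, another such heavy chain, averaged 93.9 ± 13.3 CPM in sunitinib cells and 215 ± 5 CPM in compound 32 cells, against 158 ± 8 CPM in DMSO cells. It fell by 0.75 ± 0.09 with sunitinib (edgeR adjusted p = 8.68e-05) and rose by 0.44 ± 0.09 with compound 32 (edgeR adjusted p = 0.00568).

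The formin DIAPH3, which nucleates actin filaments downstream of RHOA, moved the same way as MYH10, at -0.94 ± 0.06 with sunitinib and 0.26 ± 0.06 with compound 32 (edgeR adjusted p = 8.13e-07 and 0.0106), the second of which was lost without DMSO replicate 2. ARHGEF2, a microtubule-bound exchange factor for RHOA, rose with sunitinib to 480 ± 46 CPM, against 219 ± 6 CPM in DMSO cells (log2 fold change 1.14 ± 0.08, edgeR adjusted p = 9.27e-07). With compound 32 it was at 189 ± 7 CPM and not called (-0.21 ± 0.08, edgeR adjusted p = 0.0709), but without sunitinib replicate 3 it was called lower (-0.21, edgeR adjusted p = 8.05e-06). So ECT2 and ARHGEF2, both activators of RHOA, lay on opposite sides of their DMSO level in sunitinib cells. The myosin light chain gene MYL12A rose with sunitinib by 0.84 ± 0.12 (edgeR adjusted p = 0.000202), and RHOB, a relative of RHOA, by 0.77 ± 0.11 (edgeR adjusted p = 0.000178). Without sunitinib replicate 3 the rise was 0.66 for MYL12A and 0.825 for RHOB. Small changes with compound 32 were those of RHOB (0.38 ± 0.11), RHOC (0.29 ± 0.08) and ARHGAP35 (-0.45 ± 0.13), a GTPase-activating protein for RHOA, with edgeR adjusted p = 0.0276, 0.0172 and 0.0333. The ARHGAP35 call was lost without any 1 compound 32 or DMSO library. That of RHOB was lost without any 1 compound 32 library or DMSO replicate 2 or 3. That of RHOC was lost without compound 32 replicate 1 or 3 or DMSO replicate 1 or 3.

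Genes of ESCRT and abscission, the step that CEP55 starts, were called as follows. Of 24 genes 1 fell (4.17%) and 7 rose (29.2%) with sunitinib, and none fell and 2 rose (8.33%) with compound 32, with medians of 0.05 in both. Without sunitinib replicate 3 these counts were 3 and 7 with sunitinib and 5 and 6 with compound 32, the last being 20.8% and 25%, near the shares of all genes in that fit. TSG101, the ESCRT-I subunit that CEP55 binds, averaged 75.2 ± 13.4 CPM in sunitinib cells and 53.1 ± 1.8 CPM in compound 32 cells, against 50.2 ± 2.8 CPM in DMSO cells. It rose with sunitinib by 0.58 ± 0.11 (edgeR adjusted p = 0.00135), and by 0.43 without sunitinib replicate 3. PDCD6IP, which encodes ALIX, averaged 215 ± 3, 240 ± 1 and 228 ± 2 CPM in sunitinib, compound 32 and DMSO cells and was not called against DMSO (edgeR adjusted p = 0.227 and 0.368).

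Other ESCRT genes that rose with sunitinib were CHMP4C, which takes part in the abscission checkpoint, by 0.92 ± 0.13 (edgeR adjusted p = 0.000185), and VPS28, another ESCRT-I subunit, by 0.69 ± 0.07 (edgeR adjusted p = 2.22e-05). CHMP2A rose by 0.80 ± 0.18 and CHMP4B by 0.28 ± 0.10 (edgeR adjusted p = 0.00418 and 0.0433), and without sunitinib replicate 3 these were 0.51 and 0.14. Both genes were still called without that replicate, but the CHMP4B call was lost without any 1 DMSO or compound 32 library. VPS37B fell by 0.37 ± 0.08 (edgeR adjusted p = 0.00234). With compound 32, ZFYVE19, which works with CHMP4C to delay abscission, rose by 0.58 ± 0.10 (edgeR adjusted p = 0.00173). The ESCRT-I gene VPS37A rose by 0.29 ± 0.09 (edgeR adjusted p = 0.0375), a call lost without any 1 compound 32 or DMSO library or sunitinib replicate 1. In sunitinib cells the adaptor CEP55 was thus lower while its partner TSG101 was higher, and in compound 32 cells CEP55 was lower and TSG101 was not called.

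Genes of membrane traffic to the midbody were called at shares near those of all genes tested. Of 16 genes 3 fell (18.8%) and 4 rose (25%) with sunitinib, and 1 fell (6.25%) and 2 rose (12.5%) with compound 32. The fit without sunitinib replicate 3 had, in both comparisons, 3 lower and 4 higher. RAB35, a GTPase needed late in cytokinesis, averaged 111 ± 7 CPM in sunitinib cells, against 138 ± 4 CPM in DMSO cells (log2 fold change -0.32 ± 0.06, edgeR adjusted p = 0.00209). The exocyst subunit genes EXOC5 and EXOC8 fell with sunitinib by 0.35 ± 0.08 and 0.33 ± 0.10 (edgeR adjusted p = 0.00552 and 0.0184), the call of EXOC8 being lost without DMSO replicate 1. The exocyst genes EXOC1 and EXOC3 rose with sunitinib by 0.31 and 0.24 (edgeR adjusted p = 0.0147 and 0.0394). The EXOC1 call was lost without DMSO replicate 1 or 3, and that of EXOC3 without any 1 DMSO library and some others. VAMP8 rose with sunitinib by 0.72 (edgeR adjusted p = 0.0319), from 3.35 to 5.53 CPM, a call lost without sunitinib replicate 3 or any 1 DMSO library. With compound 32 EXOC4, another exocyst gene, fell by 0.24 ± 0.07 (edgeR adjusted p = 0.0298), a call lost without any 1 compound 32 library or DMSO replicate 1 or 3. RAB11FIP3, an endosomal effector that reaches the midbody, averaged 41.4 ± 3.9 CPM in compound 32 cells, against 30.6 ± 0.9 CPM in DMSO cells (0.44 ± 0.11, edgeR adjusted p = 0.0149), a call lost without compound 32 replicate 3 or DMSO replicate 1 or 2. RAB11FIP4 rose with both compounds but stayed below 1 CPM in all libraries.

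**Figure D4:**
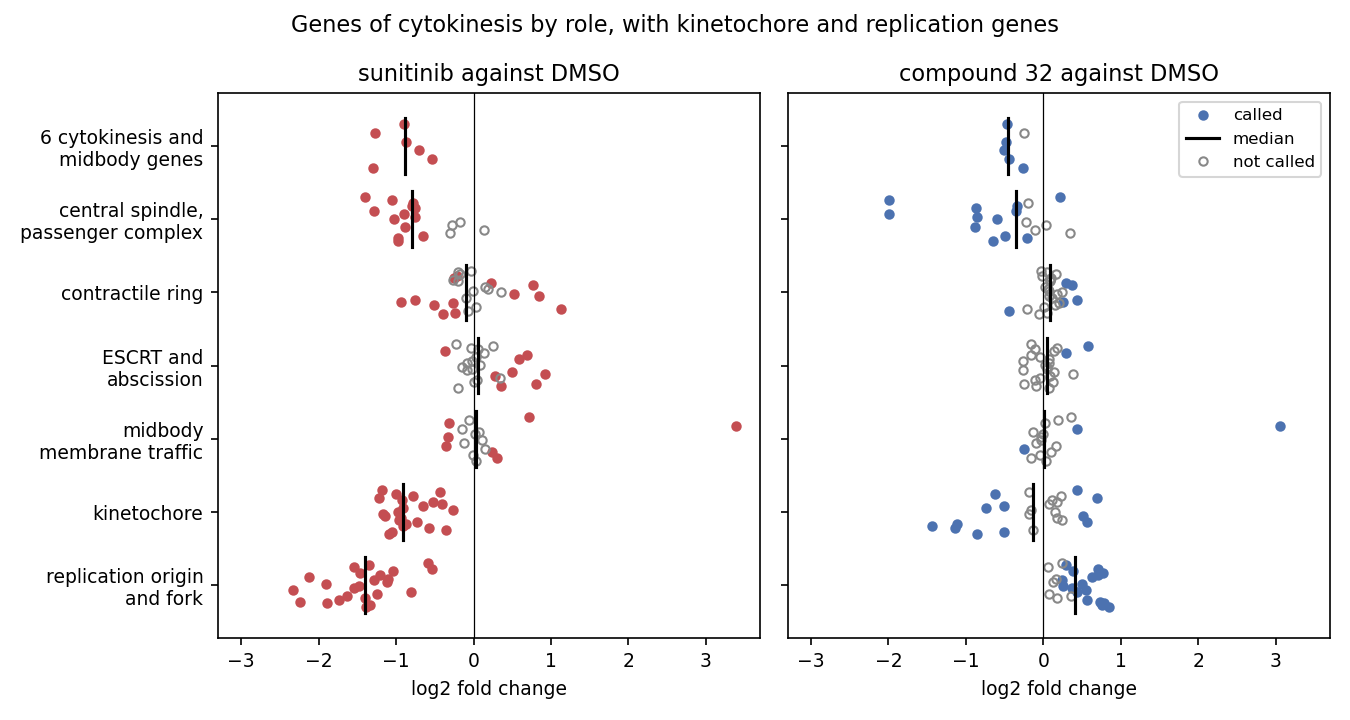
log2 fold change (horizontal axis) of every tested gene of each list, for sunitinib against DMSO (left) and compound 32 against DMSO (right). Filled points were called at an adjusted p under 0.05, open points were not, and black bars are list medians. The central spindle list has medians of -0.80 and -0.35, and the other partner lists lie near 0.

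Lists of other cell cycle genes were counted the same way. Of 23 kinetochore genes, 23 fell with sunitinib, and 8 fell and 4 rose with compound 32, with medians of -0.92 and -0.13. Of 24 genes of replication origins and forks, 24 fell with sunitinib, and none fell and 17 rose with compound 32, with medians of -1.40 and 0.41. With sunitinib replicate 3 left out, all 23 kinetochore and 24 replication genes again fell with sunitinib, 11 kinetochore genes fell and 8 rose with compound 32, and 22 replication genes rose with it. The medians of the 6 cytokinesis genes were -0.89 and -0.46. Among regulators of G2 and M phase promoters, MYBL2, which encodes B-MYB, fell with sunitinib by 1.33 ± 0.06 (edgeR adjusted p = 8.51e-08) and rose with compound 32 by 1.13 ± 0.06 (edgeR adjusted p = 4.25e-07). FOXM1 fell with sunitinib by 0.94 ± 0.07 (edgeR adjusted p = 2.75e-06) and with compound 32 by 0.24 ± 0.07 (edgeR adjusted p = 0.0375), the second call being lost without any 1 compound 32 or DMSO library. CDKN1A, which encodes the cell cycle inhibitor p21, rose with sunitinib by 0.46 ± 0.07 and with compound 32 by 1.29 ± 0.07 (edgeR adjusted p = 0.000209 and 2.66e-07). The part of these regulators in the members' levels was not tested.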

How the data were processed

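Per the labels' protocols, mRNA was captured with oligo(dT) beads, and random hexamers primed the cDNA. The authors deposited a table of 58735 genes with the raw count of each in 9 libraries. Per the submitters' processing notes, fastp, HISAT2 2.0.5, featureCounts, DESeq2 and edgeR were used, with no role given, and a mouse build is listed beside hg38. All gene coordinates were those of GENCODE 29. No source used here gives the strand setting or the handling of reads shared by genes.

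Samples were grouped by the treatment in the labels. Counts were tested with edgeR 4.0.16 in R 4.3.3 (limma 3.58.1) by a robust quasi-likelihood fit with TMM factors after filterByExpr, in 1 model of 9 libraries with 6 residual degrees of freedom. Standard errors were taken as the log2 fold change divided by the square root of F. The fit was tested on simulated data. Alternatives included DESeq2 1.42.0, other scalings and filters, and leaving out each library. CPM per kb divides by the length deposited with the table. Correlations used log2 CPM with a prior count of 2.

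The 6 genes and all lists were chosen with earlier results of these data known. Named partner genes were those called in a comparison against DMSO with a mean of at least 5 CPM, including at least the 4 largest changes of each list, and KIF23, KIF4A, KIF14, TSG101, PDCD6IP, CHMP4B, RHOA and AURKB. RAB11FIP4, VAMP8, MYH9 and the promoter regulators were named outside that rule after their values were seen. P-values measure the spread between these libraries.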

Additional observations from a re-analysis of the deposited data

How the results depend on the processing

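The fold changes of the 6 genes in the 3 comparisons were recomputed 306 times under other scalings, filters, tools and sample sets: 291 kept their direction and their side of the threshold, 12 kept the direction and lost the call, 2 gained a call and 1 reversed, that of PRC1 for compound 32 against DMSO, to 0.057 without compound 32 replicate 3 (from -0.439 to 0.057 over the libraries left out). Counts of calls depended more on the settings. At an adjusted p under 0.01, 3948 genes were called with sunitinib and 1715 with compound 32, members lower with compound 32 numbered 3, and partner genes called higher numbered 9 with sunitinib, 3 with compound 32 and 18 for compound 32 against sunitinib. With a change of at least 1.5-fold required, the totals were 2853 with sunitinib, 1273 with compound 32 and 4101 between the compounds. Then 0 members were lower with compound 32 and 2 were higher than with sunitinib, and partner genes lower and higher numbered 15 and 8 with sunitinib, 7 and 1 with compound 32, and 6 and 8 between the compounds. A fit of only the 6 libraries compared called 6372 genes with compound 32, 22 partner genes lower and 21 higher with it, and 10 higher with sunitinib. For compound 32 against sunitinib, library totals called 19 partner genes higher, and upper-quartile factors called 23 lower and 18 higher. Upper-quartile factors moved the median of all genes to 0.11 for sunitinib against DMSO (3952 higher and 2316 lower) and to -0.12 for compound 32 against sunitinib (3008 higher and 4712 lower). Library totals gave 3665 higher and 2428 lower, and 3090 higher and 4470 lower. The cause was not tested.

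Leaving out 1 library at a time gave 2136 to 6548 genes called with compound 32, the highest without sunitinib replicate 3, 3 to 5 members lower, 10 to 22 partner genes lower and 4 to 22 higher with compound 32, and 9 to 17 partner genes higher with sunitinib. The treatments share 1 estimate of the spread, so sunitinib replicate 3 also enters the errors of compound 32 against DMSO. Libraries with the same replicate number did not deviate together (correlations from -0.08 to 0.06 over 9 pairs), so the numbers were not taken to pair them. With the number as a replicate block, 5758, 2878 and 7174 genes were called, and no count of members changed. With 9 to 38 counts per library, PRC1 is the member whose value is limited by few counts, beside its overlap with other genes given above.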
